A study of Mus musculus with 6 samples.

Results

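Aminoacyl-tRNA synthetases are the enzymes that attach each amino acid to its matching transfer RNA, the step that precedes every round of protein synthesis. Mouse cells carry separate nuclear genes for most of the cytosolic enzymes and for their mitochondrial counterparts, whose products are imported into the organelle and serve the few proteins it translates itself. Several cytosolic enzymes sit together in the multisynthetase complex, and many cytosolic synthetase genes are known targets of Atf4, the transcription factor of the amino acid response. The genes were chosen by name, 35 in all: 19 cytosolic and 16 mitochondrial. Of these, 34 were found among the 34656 genes of the series, 19 cytosolic and 15 mitochondrial, and Cars2 was not analysed here.

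Polyadenylated RNA was profiled in primary myoblasts, the precursor cells of muscle. They came from skeletal muscle of male mice aged 1 month and were differentiated for 4 days in 2% horse serum. SfpqSM-KO mice, which lack the RNA-binding protein Sfpq in skeletal muscle (SFPQ_KO, 3 libraries), were compared with control mice (Cont, 3 libraries). No label names a Cre driver, the alleles that controls carry or the mouse behind each culture, so the p-values measure the spread between these libraries, which may be partly technical. Values are TPM (abundances corrected for transcript length and scaled to a common total per library), a unit from which the depth of a library cannot be read.

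Sfpq itself averaged 17.2 ± 2.78 TPM in knockout libraries against 53.01 ± 6.50 TPM in control libraries (SD, n = 3 each; all values after ± here are SDs), and the groups did not overlap. The muscle markers were abundant in every library (summed over 8 genes, 55146 to 56959 TPM in knockout, 48071 to 49450 TPM in control). Acta1, Tnnt3 and Des led, and Acta1 averaged 30842 ± 3210 TPM in knockout and 24426 ± 1456 TPM in control. Of the 8 genes 6 had higher values in knockout. Tnnt3 (mean 6295 against 7602 TPM in control) and Ckm (4142 against 4728 TPM) had lower ones. The groups lay apart for Acta1 and Des alone. Of 7 fibroblast markers 3 were high enough to test, and the sum of the list ran from 154 to 216 TPM in knockout and from 198 to 293 TPM in control, mostly Col3a1 and Col1a1, with Lum listed at 0 in 5 libraries. The 6 cell cycle markers summed to 6.62 to 18.7 TPM in knockout and 19.4 to 25.03 TPM in control. Of the smooth muscle and pericyte markers Cspg4 alone was high enough to test, and the list summed to 9.004 to 18.4 TPM in knockout and 3.61 to 11.8 TPM in control. Endothelial, immune and adipocyte markers stayed at or under 2.13 TPM in sum in every library, and Ptprc, Adgre1 and Emcn were listed at 0 throughout. Whether the differences in muscle, fibroblast, pericyte and cell cycle markers have a part in the synthetase values was not tested. In bulk RNA, fewer cells of a type and less RNA per cell cannot be told apart.

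Response elements for the C/EBP and ATF factors, through which Atf4 acts, were searched in RefSeq promoter windows of GRCm38.p6, which run from 250 bases before to 50 bases after an annotated start. The motif was TGATGNAA on either strand, with TGATGCAA as its strict form, and every strict match is also counted in the looser form. Windows were found for 12 cytosolic and 13 mitochondrial members. The motif was present for 5 of the 12 cytosolic genes (41.7%) and for 0 of the 13 mitochondrial genes, while 2.54% of the 9542 tested genes with a window and 3.97% of all 32851 windows held it. The strict form was present for 4 of the 12 cytosolic genes and 0.639% of the tested genes with a window. A match describes letters in a window, not a bound site, and 1 stretch for each of the 5 genes is shown because they include Aars1 and Iars1, the cytosolic members with the clearest differences described below. Each stretch reads 5′ to 3′ on the strand of its gene, with the motif in capitals; positions count from 1 at the annotated start, with negative numbers before it.
Aars1 (chr8:111033840-111033869, plus strand, motif from 10): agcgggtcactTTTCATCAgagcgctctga
Gars1 (chr6:55037931-55038000, plus strand, motif from −30): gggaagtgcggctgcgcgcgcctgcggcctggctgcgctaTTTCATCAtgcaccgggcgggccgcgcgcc
Iars1 (chr13:49682126-49682155, plus strand, motif from 8): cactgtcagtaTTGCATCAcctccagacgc
Tars1 (chr15:11399659-11399713, minus strand, motif from −15): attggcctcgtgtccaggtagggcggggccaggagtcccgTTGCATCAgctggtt
Yars1 (chr4:129189895-129189924, plus strand, motif from 4): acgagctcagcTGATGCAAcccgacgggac
The elements shown for Aars1 and Gars1 are of the looser form, and the strict match counted for Aars1 lies elsewhere in its window. The starts that the Aars1 and Yars1 windows use lie inside the annotated spans of these genes, as do the elements shown for them.

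Levels separated the compartments. Over the 6 libraries the mean level of the cytosolic genes ran from 57.1 TPM for Lars1, the leucyl enzyme, to 269 TPM for Gars1, the glycyl enzyme that serves both compartments, with a median of 79.95 TPM. The mitochondrial genes ran from 2.57 TPM for Wars2, the tryptophanyl enzyme, to 61.4 TPM for Iars2, the isoleucyl enzyme, with a median of 17.7 TPM. Iars2 was the only mitochondrial gene whose mean exceeded that of any cytosolic gene, and it passed Lars1 alone. That neighbouring order lay within the spread, since control levels were 65.7 ± 2.05 TPM for Iars2 and 61.6 ± 4.95 TPM for Lars1. All 34 members reached 1 TPM in every library, so none entered the test through a single group.

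**Figure D1:**
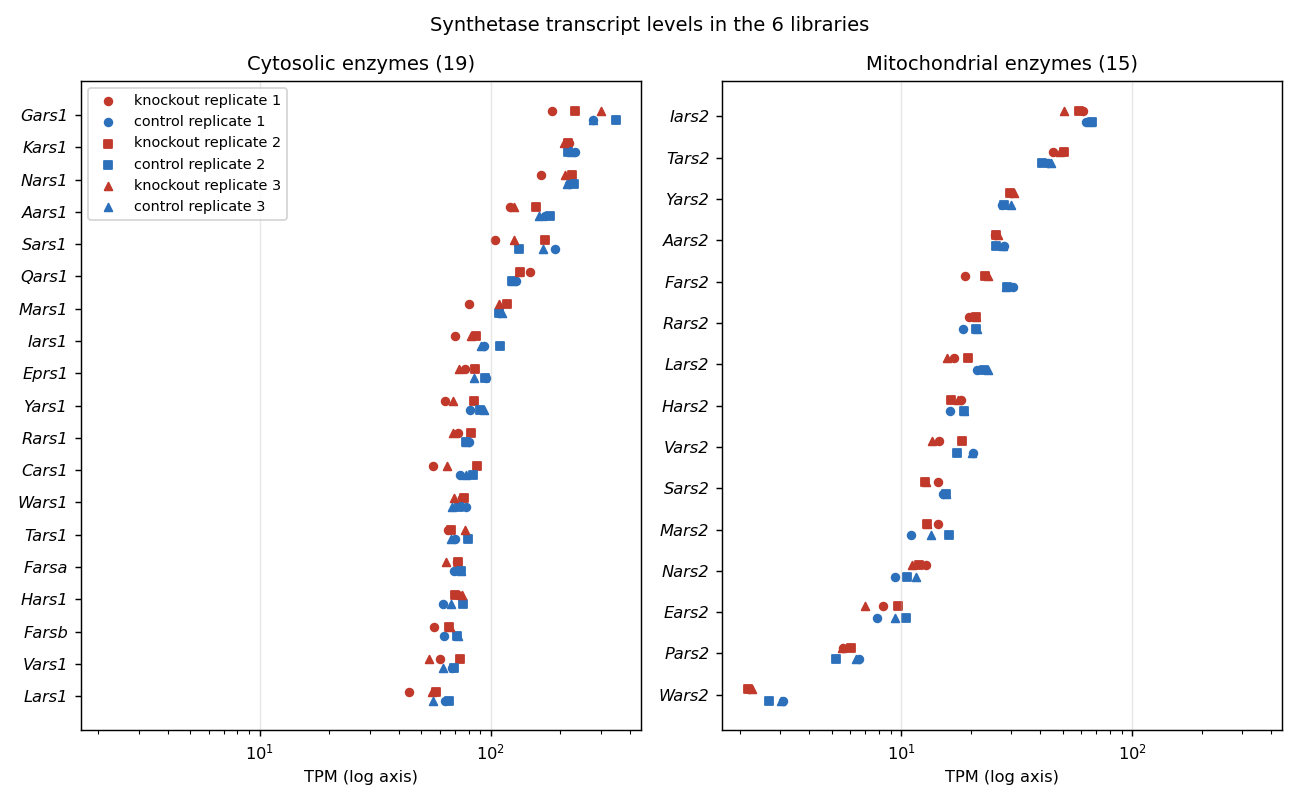
TPM of each synthetase gene (log axis) in the 3 knockout libraries (red) and the 3 control libraries (blue), with a marker shape for each replicate number, ordered by mean level. Cytosolic genes lie between means of 57.1 and 269 TPM and mitochondrial genes between 2.57 and 61.4 TPM, and knockout replicate 1 (red circles) is the lowest library for 11 of the 19 cytosolic genes.

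The question put to these genes was whether cytosolic and mitochondrial synthetases differ between Sfpq knockout and control. Differences were small in both compartments, and none passed the test over all genes. On the log2(TPM + 1) scale, 16 of 19 cytosolic genes had lower values in knockout, with a median difference of −0.12 and a range from −0.36 to 0.14. Of the 15 mitochondrial genes 10 had lower values, with a median of −0.066 and a range from −0.41 to 0.17. Over all 12461 genes tested the median was −0.069 and 64.5% had lower values, so the mitochondrial list sat at the level of all genes and the cytosolic list somewhat below it. After median-of-ratios scaling, which moved the median of all genes to −0.0017, the cytosolic median was −0.051 with 13 lower values, and the mitochondrial median turned to 0.0017 with 7 lower. Limma with Benjamini-Hochberg adjustment over all genes called 0 genes (0%), and the lowest adjusted p among the members was 0.266. Sfpq itself was not called either (−1.57, SE 0.15), and its adjusted p of 0.0531 was the lowest over all genes tested. With 3 libraries a group, the lack of calls therefore does not show that the synthetases are unchanged.

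At an unadjusted p under 0.05, limma placed 2 cytosolic genes (10.5%) and 3 mitochondrial genes (20.0%) lower in knockout, against 9.62% of all genes tested, and 0 members higher, against 2.68% of all genes. The 2 cytosolic genes are close to the share of all genes, and with 15 mitochondrial genes the 3 there are few to read. Groups that did not overlap, with every knockout library below every control library, were found for 2 cytosolic and 5 mitochondrial genes (10.5% and 33.3%), against 15.3% of all genes. The reverse held for 1 gene in each compartment (5.26% and 6.67%), against 4.27% of all genes. Scaling moved these shares: the unadjusted split over all genes, 334 higher and 1199 lower on the deposited scale, was 716 and 713 after median-of-ratios scaling and 694 and 677 after quantile normalization. After median-of-ratios scaling 1 cytosolic gene was higher and 0 were lower, and 2 mitochondrial genes were higher and 2 lower, at the same unadjusted threshold.

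**Figure D2:**
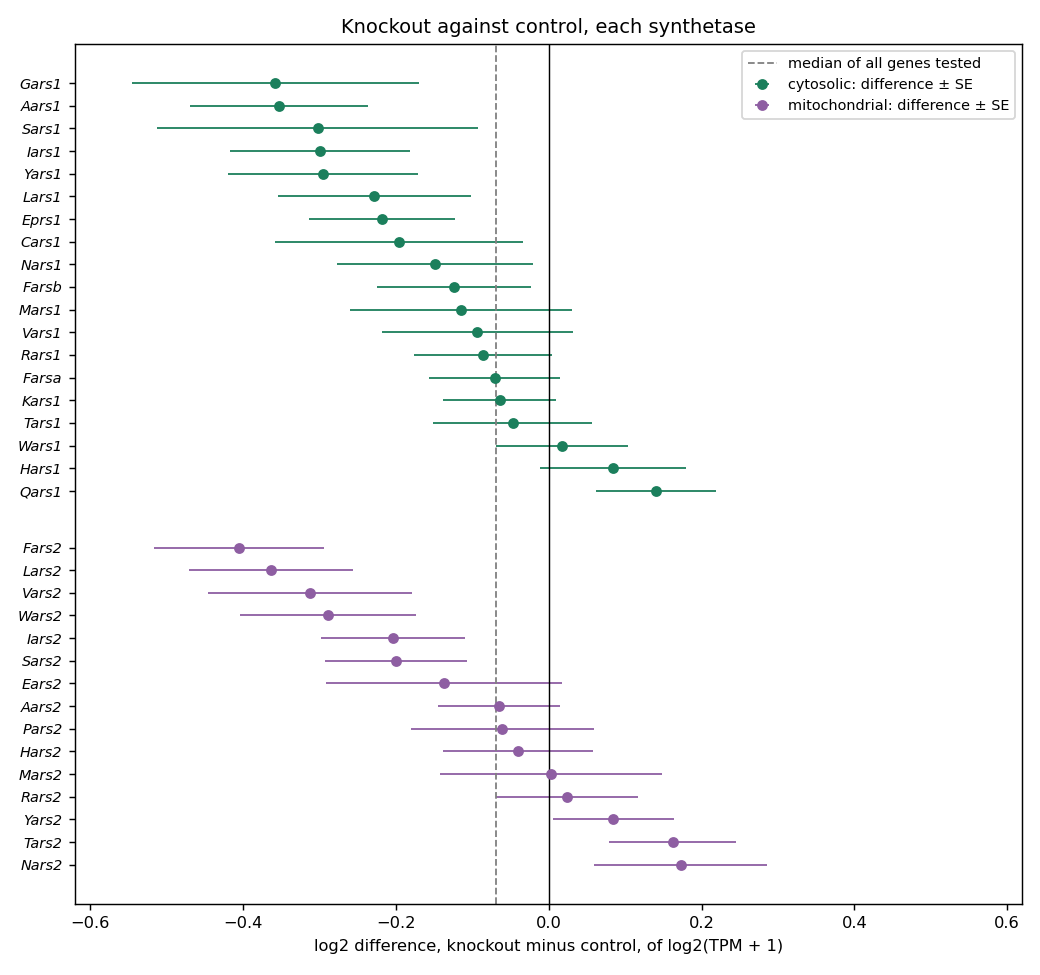
Difference between knockout and control on the log2(TPM + 1) scale for each of the 34 synthetase genes, with bars of 1 SE from limma (3 libraries a group), cytosolic genes in green above and mitochondrial genes in purple below. The dashed line marks the median of all genes tested, −0.069, and both compartments hold genes on either side of it, from −0.41 for Fars2 to 0.17 for Nars2.

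The cytosolic difference was largest in a single knockout library. Summed over the 19 genes, the cytosolic level was 1801, 2160.1 and 2026 TPM in knockout replicates 1 to 3 and 2221, 2298 and 2169 TPM in control. All knockout sums were under all control sums, by a wide margin in replicate 1 and a narrow one in replicate 2 (means 1996 ± 181 and 2229.7 ± 64.9 TPM, a difference of −10.5%). The sums are on the deposited scale, where 64.5% of all genes tested had lower values in knockout, and were not recomputed after scaling. Knockout replicate 1 held the lowest of the 6 values for 11 of 19 cytosolic genes (57.9%), against 19.4% of all genes tested, and knockout replicate 2 for 0. Without knockout replicate 1 the cytosolic median was −0.073, beside −0.078 for all genes, and 14 genes had lower values. Leaving out knockout replicate 2 instead gave −0.23, beside −0.068 for all genes, with 6 of 19 cytosolic genes lower at an unadjusted p under 0.05, where 9.99% of all genes were.

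For the mitochondrial enzymes the summed level was 308, 319 and 299.99 TPM in knockout and 322, 331 and 341 TPM in control. On the deposited scale these sums did not overlap either, by a narrow margin, but they lay closer together within each group (309 ± 9.46 and 331 ± 9.25 TPM, a difference of −6.72%). The ratio of the cytosolic to the mitochondrial sum was 5.84, 6.77 and 6.75 in knockout and 6.89, 6.95 and 6.36 in control. The groups overlapped in this ratio (6.46 ± 0.533 against 6.73 ± 0.322), so no shift of one compartment against the other was seen beyond the spread between libraries.

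Among cytosolic enzymes, the alanyl enzyme Aars1 had 1 of the 2 clearest differences. Its levels were 121, 157 and 126 TPM in the knockout libraries and 172, 181 and 162 TPM in control, so all knockout values lay below all control values. The difference was −0.35 (SE 0.12, limma adjusted p = 0.329), and knockout replicate 2 came nearest to control. The span of Aars1 (chromosome 8, 111027778 to 111055569) shares 3974 bases with Ddx19b on the opposite strand, and since strand use is not given, reads in that stretch cannot be told apart. Iars1, the isoleucyl enzyme of the multisynthetase complex (chromosome 13, 49682130 to 49734267), was at 69.9, 86.3 and 81.7 TPM in knockout and 92.9, 109.97 and 90.4 TPM in control. These groups did not overlap either (−0.30, SE 0.12, adjusted p = 0.384). An unadjusted p under 0.05 held for Aars1 in 11 of 15 alternative settings and for Iars1 in 8 of 15. For both it was lost without knockout replicate 1 (−0.28 for Aars1 and −0.21 for Iars1), without control replicate 2 (−0.31 and −0.21) and without knockout replicate 3 (−0.31 and −0.32). It was also lost for both after median-of-ratios scaling (−0.28 and −0.23). The groups of Aars1 overlapped after both scalings and those of Iars1 after median-of-ratios scaling.

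Gars1 and Sars1, the seryl enzyme, had differences of similar size but wide spread. Gars1 was at 185, 230.2 and 298 TPM in knockout and 277, 347 and 278 TPM in control, where knockout replicate 3 reached into the control range (−0.36, SE 0.19). Sars1 was at 104, 172 and 126 TPM in knockout and 189.9, 133 and 169 TPM in control, and its groups overlapped across most of their range (−0.30, SE 0.21). Yars1, the tyrosyl enzyme, was at 63.0, 84.2 and 68.5 TPM in knockout and 81.4, 89.3 and 93.3 TPM in control (−0.30, SE 0.12), with knockout replicate 2 above the lowest control library. None of these 3 passed an unadjusted p of 0.05. The next most abundant cytosolic transcripts were closer between the groups. Kars1, the lysyl enzyme, which also serves both compartments, was at 217, 216 and 207 TPM in knockout and 232, 215 and 222 TPM in control. Nars1, the asparaginyl enzyme, was at 164, 225 and 210.2 TPM in knockout and 218, 228 and 213 TPM in control, so that knockout replicate 1 alone stood well below the other libraries.

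The multisynthetase complex resembled the other cytosolic enzymes. Of its 7 enzymes listed here 6 had lower values, with a median of −0.11, and the 12 cytosolic enzymes outside it had a median of −0.14 with 10 lower. Qars1, the glutaminyl enzyme of the complex, was the exception: 148, 133 and 133 TPM in knockout and 128, 123 and 124 TPM in control. Every knockout value lay above every control value, by a small margin (0.14, SE 0.078, adjusted p = 0.504). Eprs1, the joint glutamyl and prolyl enzyme, differed by −0.22 (SE 0.095) and Lars1 by −0.23 (SE 0.13), while Mars1, the methionyl enzyme, Rars1, the arginyl enzyme, and Kars1 lay between −0.11 and −0.064 (0.0091 for Kars1 after median-of-ratios scaling). Mars1 shares 71 bases with Ddit3 on the opposite strand. The 3 scaffold proteins of the complex were near equal between the groups: Aimp1 differed by 0.064, Aimp2 by 0.0084 and Eef1e1 by −0.097, each with overlapping groups and SEs of 0.078, 0.14 and 0.096.

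The remaining cytosolic enzymes differed by less than 0.2 in either direction. Farsa and Farsb encode the subunits of the phenylalanyl enzyme, which acts as a tetramer of both, and their differences were −0.071 and −0.12. The ratio of Farsa to Farsb was 1.10 ± 0.149 in knockout and 1.06 ± 0.0374 in control. Farsb shares 2332 bases with Sgpp2 on the opposite strand. Cars1, the cysteinyl enzyme, differed by −0.196 (SE 0.16), the valyl enzyme Vars1 by −0.093, the threonyl enzyme Tars1 by −0.047, the tryptophanyl enzyme Wars1 by 0.017 and the histidyl enzyme Hars1 by 0.084. Nars1 differed by −0.15 (SE 0.13).

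On the mitochondrial side Fars2 had the most negative difference of all members. This enzyme charges mitochondrial tRNA with phenylalanine, and its gene (chromosome 13, 36117428 to 36537595) is the longest of the family. Its levels were 18.8, 23.2 and 23.7 TPM in knockout and 30.6, 28.7 and 28.3 TPM in control. The groups did not overlap, and the mean was lower by 25.0% (−0.41, SE 0.11, adjusted p = 0.266). Lars2, the leucyl enzyme (chromosome 9, 123366927 to 123462675), was at 17.02, 19.5 and 15.7 TPM in knockout and 21.3, 22.8 and 23.9 TPM in control. These groups were also apart (−0.36, SE 0.11, adjusted p = 0.293). Both also stayed apart after each scaling. Fars2 and Lars2 kept an unadjusted p under 0.05 in 15 of 15 alternative settings, and their adjusted p over those settings ran from 0.242 to 0.605 and from 0.225 to 0.673.

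Wars2 (chromosome 3, 99140107 to 99221230) was the scarcest member, at 2.19, 2.17 and 2.27 TPM in knockout and 3.07, 2.68 and 3.02 TPM in control. No knockout value reached the control range (−0.29, SE 0.12, adjusted p = 0.387), and an unadjusted p under 0.05 held in 5 of the 14 alternatives that could test it. Iars2 was at 61.2, 59.1 and 50.9 TPM in knockout and 63.4, 67.1 and 66.7 TPM in control, and Sars2, the seryl enzyme, at 14.5, 12.7 and 12.8 TPM in knockout and 15.1, 15.6 and 15.6 TPM in control. For both, the highest knockout library stood just under the lowest control library (differences of −0.20 with an SE of 0.094 and −0.20 with an SE of 0.093). Iars2 stayed apart after both scalings, and Sars2 did not. The span of Iars2 shares 115 bases with Rab3gap2 on the opposite strand.

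Other mitochondrial enzymes had higher values in knockout. Tars2, the threonyl enzyme (chromosome 3, 95739974 to 95756365), was at 45.4, 50.5 and 48.6 TPM in knockout and 43.4, 40.7 and 44.7 TPM in control, with all knockout values above all control values (0.16, SE 0.083, adjusted p = 0.474). Nars2, the asparaginyl enzyme, differed by 0.17 (SE 0.11), with overlap: 12.8, 11.97 and 11.2 TPM in knockout and 9.38, 10.6 and 11.6 TPM in control. Yars2, the tyrosyl enzyme, which followed Iars2 and Tars2 in level, was at 29.97, 29.6 and 30.7 TPM in knockout and 27.4, 27.8 and 29.8 TPM in control, overlapping by a narrow margin (0.084, SE 0.079). Nars2 and Yars2 had groups apart, with knockout above, after both scalings. Vars2, the valyl enzyme, had a lower mean in knockout (15.5 ± 2.44 against 19.4 ± 1.67 TPM, difference −0.31, SE 0.13), with knockout replicate 2 inside the control range. The other 6 mitochondrial genes, Aars2, Ears2, Hars2, Mars2, Pars2 and Rars2, differed by −0.14 to 0.024, each with overlapping groups.

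The title of the series names long genes as its subject. Gene span, which the choice of members did not use, ran from 2.88 kb for Mars2 to 420 kb for Fars2. The 4 members spanning 80 kb or more were all mitochondrial: Fars2, Nars2 (114 kb), Lars2 (95.7 kb) and Wars2 (81.1 kb). Of these Fars2, Lars2 and Wars2 had the values described above, and Nars2 lay on the higher side. The cut of 80 kb was not planned in advance, and the next longest member, Farsb, spanned 70.9 kb. Over the 34 members the rank correlation (Spearman) between span and difference was −0.45, and it was −0.35 within the 15 mitochondrial and −0.57 within the 19 cytosolic genes. These coefficients describe genes that share the same 6 libraries, and genes are not independent replicates. The coefficient over all genes tested was not computed. The cytosolic genes spanned 7.94 to 70.9 kb, so their coefficient holds no gene above the cut. For mean level and difference the coefficient was −0.19 over the 34 genes, −0.35 within the cytosolic and 0.071 within the mitochondrial genes.

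Enzymes for the same amino acid could be set side by side in 13 pairs, with Farsa standing for the cytosolic phenylalanyl enzyme. Both genes had lower values in 6 pairs, and in 7 pairs the directions were opposite. These counts are on the deposited scale, where 64.5% of all genes tested had lower values, and some signs rest on values near 0. Mars2 differed by 0.0030, Wars1 by 0.017 and Rars2 by 0.024, each less than its SE. After median-of-ratios scaling Farsa (0.0017), Aars2 (0.0055), Hars2 (0.030) and Tars1 (0.0255) turned above 0, which moved their pairs to another class. The ratio of the cytosolic to the mitochondrial transcript in control ran from 1.49 for Iars1 over Iars2 to 24.96 for Wars1 over Wars2. It overlapped between the groups in 9 pairs. In the tryptophanyl pair the ratio was 34.3, 35.3 and 30.5 in knockout and 25.3, 27.1 and 22.5 in control, apart in all libraries, with Wars1 itself near equal (73.6 ± 3.92 and 72.7 ± 4.82 TPM). The phenylalanyl ratio, Farsa over Fars2, was also higher in each knockout library (3.20 ± 0.556 against 2.49 ± 0.208), as was the valyl ratio (4.03 ± 0.0796 against 3.44 ± 0.465). Both were apart by a narrow margin only. The lowest knockout and highest control ratios were 2.69 and 2.63 for the phenylalanyl pair and 3.96 and 3.95 for the valyl pair. In the tyrosyl pair the order was reversed: 2.10, 2.84 and 2.23 in knockout and 2.97, 3.21 and 3.13 in control. The ratios were not tested. How often such ratios lie apart for other pairs of genes was not examined, so the pairs apart here cannot be set against a share. The tryptophanyl ratio divides by Wars2, the scarcest member. Hars1 and Hars2, neighbours on opposite strands whose annotated spans share 4 bases, had overlapping ratios of 4.16 ± 0.192 and 3.81 ± 0.229.

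**Figure D3:**
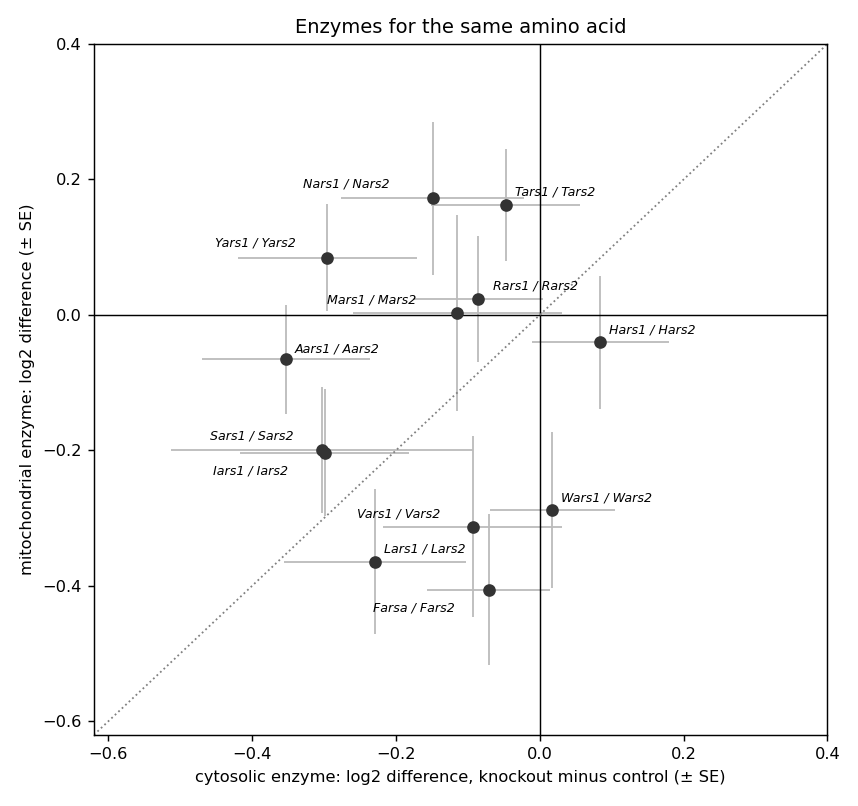
Difference between knockout and control on the log2(TPM + 1) scale for the cytosolic enzyme (horizontal) and the mitochondrial enzyme (vertical) of each of the 13 amino acid pairs, with bars of 1 SE. The dotted line marks equal differences; 6 pairs lie in the lower left, where both are below 0, and the other 7 have opposite signs.

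Genes of the amino acid response had a larger median difference than either synthetase list. Their part in the values of the cytosolic synthetases was not tested. Of 20 listed genes 19 were tested, 18 had lower values in knockout, and the median difference was −0.33. At an unadjusted p under 0.05, 5 were lower (26.3%, against 9.62% of all genes) and 0 passed after adjustment in limma. Without knockout replicate 1 the median was −0.22, with 17 lower values and 1 gene lower at that threshold (6.16% of all genes). Median-of-ratios scaling gave −0.26, with 16 lower values and 2 genes lower at that threshold (5.72% of all genes). On the deposited scale, groups lay apart with knockout below for 3 of the 19 genes (15.8%), close to the 15.3% of all genes. Atf4 itself was at 283, 395 and 343 TPM in knockout and 419, 443 and 437 TPM in control, with all knockout values below all control values (−0.36, SE 0.13, adjusted p = 0.353). Mthfd2, of mitochondrial folate metabolism, was at 40.2, 102 and 69.5 TPM in knockout and 136, 158 and 117 TPM in control (−1.04, SE 0.32, adjusted p = 0.306). Phgdh, the first enzyme of serine synthesis, differed by −0.82 (SE 0.26) and Eif4ebp1, a repressor of translation initiation, by −0.48 (SE 0.18). Knockout replicate 1 held the lowest value for 12 of the 19 genes and knockout replicate 2 for 0, as in the cytosolic synthetases, where these counts were 11 and 0 of 19. The 5 cytosolic genes with the motif in their window had lower values in 5 of 5 cases and a median of −0.30, and the 7 without it had lower values in 6 cases and a median of −0.11. Of the 5, Tars1 turned above 0 after median-of-ratios scaling (0.0255), without knockout replicate 1 (0.0014) and without control replicate 2 (0.022). Of the 7, Farsa (0.0017) and Kars1 (0.0091) turned above 0 after that scaling, and Mars1 (0.048) without knockout replicate 1. Over all genes tested the medians with and without the motif were −0.088 (242 genes) and −0.069 (9300 genes).

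**Figure D4:**
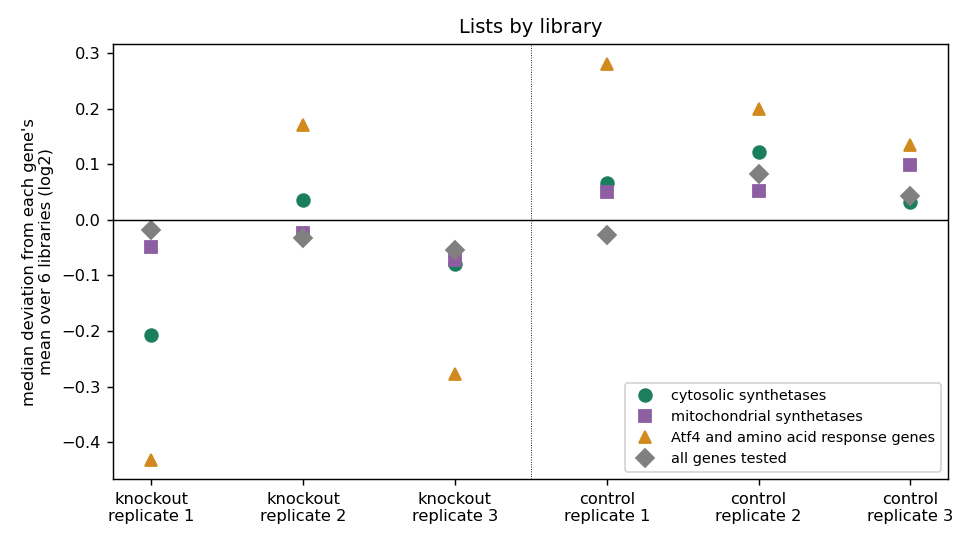
Median over each list of the deviation of each gene's log2(TPM + 1) from its mean over the 6 libraries, by library. Knockout replicate 1 is lowest for the cytosolic synthetases (−0.21) and for the amino acid response genes (−0.43), while the mitochondrial synthetases stay between −0.072 and 0.098 in all libraries.

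Genes of neighbouring steps of translation were described from the same fit. Mitochondria make glutaminyl-tRNA by an amidotransferase instead of a synthetase, and the first methionine is formylated by Mtfmt. All 4 genes of that list (Gatb, Gatc, Qrsl1 and Mtfmt) had lower values, with a median of −0.20. Gatb was at 11.8, 14.1 and 13.3 TPM in knockout and 16.5, 16.7 and 18.97 TPM in control, with no overlap (−0.39, SE 0.11, adjusted p = 0.269), and the other 3 overlapped. All 9 mitochondrial translation factors had lower values, with a median of −0.070, close to that of all genes, but 5 of 9 after either scaling. Gfm1, the mitochondrial elongation factor G, was at 54.7, 55.3 and 56.2 TPM in knockout and 74.0, 73.6 and 81.8 TPM in control, well apart (−0.46, SE 0.078, adjusted p = 0.137). Mtif2, an initiation factor, was at 19.9 ± 0.740 against 23.9 ± 1.10 TPM (−0.25, SE 0.085, adjusted p = 0.334). The cytosolic elongation factors had higher values in 5 of 6 genes, with a median of 0.098 and overlapping groups throughout. Eef1a2, the form typical of mature muscle, was the lower one, at 50.1 ± 20.1 against 110.3 ± 69.1 TPM. Of 10 amino acid transporters tested 7 had lower values (median −0.20), and 0 passed an unadjusted p of 0.05.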

How the data were processed

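The authors deposited TPM for RefSeq transcripts, 1 file per library, each summing to 1000000. STAR 2.4.1d and mm10 are named in the submitters' processing notes; the counting tool, annotation release and strand use: not given in the sources used here. Of 34671 accessions, 30822 took their gene symbol from RefSeq's table for GRCm38.p6 and 103 from GENCODE; 3746 (10.8%) kept their accession. TPM were summed per symbol, and older symbols (such as Aars) were matched to current ones. A gene entered the test when 3 or more libraries reached 1 TPM. The scale was log2(TPM + 1), which understates the change of low genes, and the test was limma 3.58.1 in R 4.3.3 (trend, 2-sided, no block, Benjamini-Hochberg adjustment over all genes at 0.05). The fit was tested on simulated data first. Signed differences are knockout minus control. Joins, motif searches and plots used pandas 2.3.3 and matplotlib 3.10.9 under Python 3.11.15. Promoter sequences are from RefSeq (GRCm38.p6); spans are from the same table, strands from GENCODE.

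The members, the lists and the motif were chosen with earlier results of these data known. Protein sequences were not used here. Some listed genes and 1 promoter stretch are not reported here. Values in each library are given for members with an unadjusted p under 0.05 or with groups apart, and for the 3 most abundant of each compartment; Sars1, Yars1 and Nars2 were added after their values were seen. Alternatives covered the pseudocount, filter, scaling, moderation, a replicate block and each library left out; those on groups that do not overlap and on the other gene lists were added after seeing the data.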

Additional observations from a re-analysis of the deposited data

How the results depend on the processing

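No synthetase passed an adjusted p of 0.05 under any of the 15 alternatives run. The count over all genes, 0 on the deposited scale, was 13 with a pseudocount of 5, 7 with a mean TPM of at least 5 and 2 in limma without trend. Scaling mattered most for the direction of the mitochondrial list: its median of −0.066 became 0.0017 after median-of-ratios scaling and −0.0096 after quantile normalization, where the medians of all genes were −0.0017 and 0.00093. At an unadjusted p under 0.05, median-of-ratios scaling gave cytosolic counts of 1 on the higher and 0 on the lower side, with 1 lower after quantile normalization and 1 lower in limma without trend. Mitochondrial counts on the higher side were 2 after median-of-ratios scaling and 1 after quantile normalization. The shares of all genes on the higher and lower sides were 5.75% and 5.72% under median-of-ratios scaling, 5.57% and 5.43% under quantile normalization and 2.59% and 9.77% without trend. Groups lay apart on the higher side for 2 cytosolic and 3 mitochondrial genes after median-of-ratios scaling, and for 3 mitochondrial genes after quantile normalization, where 9.28% and 8.71% of all genes did. On the lower side the cytosolic count was 0 and 1 under these scalings, and the mitochondrial count 4 and 4 (9.15% and 8.58% of all genes). With each library left out in turn, the cytosolic median ran from −0.23 to −0.073 and the mitochondrial median from −0.13 to −0.050. Lower counts at an unadjusted p under 0.05 ran from 0 to 6 cytosolic and from 2 to 4 mitochondrial genes. Higher counts were 0 in both lists. Over all genes in these fits, 650 to 1266 were lower (5.29% to 10.3%) and 209 to 615 higher at that threshold. The number called at an adjusted p under 0.05 stayed at 0.

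Of 34 members 23 kept their direction under every alternative, among them each member named with groups apart. Where groups lie apart, leaving out a library or changing the pseudocount cannot reverse the direction. Filter, moderation and block leave the difference itself unchanged, so for such members only the scalings could have reversed it. The 11 members outside those 23 reversed under 1 or more alternatives. After median-of-ratios scaling these were Farsa (0.0017), Kars1 (0.0091), Tars1 (0.025), Aars2 (0.0055), Hars2 (0.030) and Pars2 (0.0017), and after quantile normalization Hars2 (0.040) and Pars2 (0.039). With each library left out in turn, the values of Mars1 ran from −0.23 to 0.048, of Tars1 from −0.12 to 0.022, of Vars1 from −0.21 to 0.0047, of Wars1 from −0.029 to 0.065, of Mars2 from −0.13 to 0.13 and of Rars2 from −0.037 to 0.056. Those below or above 0 against the full data came without knockout replicate 1 for Mars1 (0.048), Tars1 (0.0014) and Mars2 (−0.045), knockout replicate 2 for Wars1 (−0.011), knockout replicate 3 for Vars1 (0.0047), control replicate 1 for Mars2 (−0.13) and Rars2 (−0.037), control replicate 2 for Tars1 (0.022) and control replicate 3 for Wars1 (−0.029). The cause of these changes was not tested. Between knockout and control libraries of the same replicate number, deviations from the group means correlated at −0.26, −0.25 and 0.049. These values show no likeness by number, but not how the cultures were set up. With a replicate block 0 genes were called, and 3 cytosolic and 2 mitochondrial members were lower at an unadjusted p under 0.05, against 2 and 3 without it, with 6.70% and 9.62% of all genes lower. TPM keep no depth, so the precision of scarce transcripts such as Wars2 is unknown.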
